A study of Mus musculus with 6 samples.

Results

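The chemokine system is the set of small secreted proteins and cell-surface receptors that directs the movement of leukocytes. Genes were taken as members when their symbol named a chemokine ligand (Ccl or Cxcl with a number, Cx3cl1 or Xcl1), a chemokine receptor (Ccr or Cxcr with a number) or an atypical receptor (Ackr with a number). Those described here are 52 of the 17419 genes in the table, 35 ligands and 17 receptors. RNA had been sequenced from tendon entheseal fibroblasts, cells of the site where tendon joins bone, isolated from SKG mice, a strain with a Zap70 mutation that is prone to autoimmune arthritis. The groups were 3 samples labelled diseased, whose titles carry NTS, and 3 labelled un-diseased, whose titles carry UN. Both groups were SKG, so the un-diseased samples carry the strain's mutation too. The labels give neither the meaning of NTS and UN, nor the age of the mice, nor how disease arose. Nor do they tell whether replicates were separate mice or cultures; the p-values therefore rest on the spread among the deposited samples, and this may be technical. Library totals were 16720612 to 18290873 counts.

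Chemokines signal through receptors coupled to Gi proteins. CXC ligands with an ELR motif, such as Cxcl1, attract neutrophils; CC ligands mostly attract monocytes, eosinophils and T cells; Cxcl9 and Cxcl10 are induced by interferon and attract activated T cells. Fibroblasts of inflamed joints and tendons are known sources of ligands, whereas most of the signalling receptors are found on leukocytes. The Ackr proteins bind chemokines without G protein signalling, and several of them scavenge their ligands. Many inflammatory ligands are transcribed through NF-kB sites close to the start of the gene.

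The promoters of the neighbouring genes Cxcl1, Cxcl2 and Cxcl3 are shown because these 3 ligands were lowest in replicate 1 of each group and lower in the diseased sample of every pair. Each sequence is the 130 bases before the RefSeq start site on GRCm38, 5′ to 3′ on the plus strand of chromosome 5, with the match to the NF-kB consensus in capitals. The stretches are chr5:90891115-90891244 for Cxcl1, chr5:90903769-90903898 for Cxcl2 and chr5:90785971-90786100 for Cxcl3.
Cxcl1: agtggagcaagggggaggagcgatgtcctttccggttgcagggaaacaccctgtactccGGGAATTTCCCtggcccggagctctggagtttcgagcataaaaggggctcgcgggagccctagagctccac
Cxcl2: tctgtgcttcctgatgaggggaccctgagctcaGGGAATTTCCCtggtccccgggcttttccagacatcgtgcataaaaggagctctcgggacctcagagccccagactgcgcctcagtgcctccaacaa
Cxcl3: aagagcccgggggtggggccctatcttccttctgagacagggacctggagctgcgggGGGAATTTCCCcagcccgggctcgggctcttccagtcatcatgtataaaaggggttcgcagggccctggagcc
All 3 promoters held the same 11 bases, GGGAATTTCCC, which match the consensus on both strands. The match began 71 bases before the start site in Cxcl1, 97 in Cxcl2 and 73 in Cxcl3.

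The promoter of Cxcl10 is shown for comparison, since this interferon-induced ligand also has NF-kB matches but passed neither fit described below. It is the 220 bases before the start site, chr5:92348890-92349109 on the minus strand, with NF-kB matches and the interferon-sensitive element in capitals.
Cxcl10: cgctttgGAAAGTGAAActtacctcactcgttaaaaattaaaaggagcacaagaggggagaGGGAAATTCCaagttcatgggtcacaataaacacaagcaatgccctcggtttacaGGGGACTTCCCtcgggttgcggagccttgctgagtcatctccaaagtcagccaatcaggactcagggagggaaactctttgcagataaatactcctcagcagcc
The first capitals, GAAAGTGAAA, are the interferon-sensitive element, searched as GAAA repeated after any pair of bases, and the other two runs are NF-kB matches. Among the promoters of 40 members in the RefSeq table (47 promoters, since some genes have several start sites), 11, or 23.4%, held the NF-kB consensus within 250 bases before the start. The share was 7.25% over all 32851 promoters of the same source. Members with the NF-kB consensus went both ways in the fit with the replicate block described below. Cxcl1, Cxcl2, Cxcl3 and Ackr2 were lower in it, and Ccl9 and Ccr1 were higher. The interferon-sensitive element was in 3 of the 47 (6.38%, against 2.98% of all promoters). The letters TATAAA of the TATA box, counted at any position in the 250 bases, were in 27.7% of the member promoters against 12.4%. The AP-1 motif TGANTCA was in 12.8% of the member promoters against 6.75%. The STAT6 motif, TTC and GAA with any 4 bases between them, was in 2.13% of them against 5.85%, and the C/EBP consensus in 2.13% against 6.63%. Both strands were searched. A match describes the letters of the window and shows neither binding nor a cause.

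Ccl11 was lower in diseased samples and was the member described here that passed the test. Of 27 ligands with enough counts to be tested, 0 rose and 1 fell by edgeR's quasi-likelihood test (adjusted p under 0.05), against 1.61% of all 13264 tested genes rising and 2.13% falling (3.73% in either direction). Unadjusted p-values under 0.05 were reached by 3 ligands upward and 2 downward, beside 27.8% of all genes in either direction. DESeq2 called 1 ligand upward and 2 downward, beside 4.79% and 6.65% of all genes (11.4% in either direction). Of the 8 receptors described here that could be tested, 0 passed by edgeR, with unadjusted p-values under 0.05 for 1 upward and 3 downward; DESeq2 called 1 upward and 3 downward. The median log2 fold change (diseased minus un-diseased throughout) was -0.14 for the tested ligands and -0.40 for those receptors, beside 0.02 for all tested genes.

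Samples with the same replicate number varied together, so the comparison was also made with the replicate number as a block, which compares within pairs. This pairing was inferred from the data and is not stated in the labels. If the numbers do not pair the samples, the blocked p-values do not apply. In the blocked fit 4 ligands were higher (Cxcl9, Ccl5, Ccl6 and Ccl9) and 7 lower (Cxcl1, Cxcl2, Cxcl3, Ccl2, Ccl7, Ccl8 and Ccl11). These are 14.8% and 25.9% of the tested ligands, beside 10.5% and 13.3% of all genes (23.9% in either direction). Among the 8 receptors 2 were higher (Ccr1 and Cxcr4) and 3 lower (Ackr1, Ackr2 and Ackr4), or 25% and 37.5%. All 3 pairs had the same sign for 8 ligands upward and 11 downward, where 30.7% and 30.1% of all tested genes had it. The groups did not overlap for 2 ligands upward (Cx3cl1 and Ccl9) and 3 downward (Ccl8, Ccl11 and Ccl28), against 16.5% and 15.4% of all genes.

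**Figure D1:**
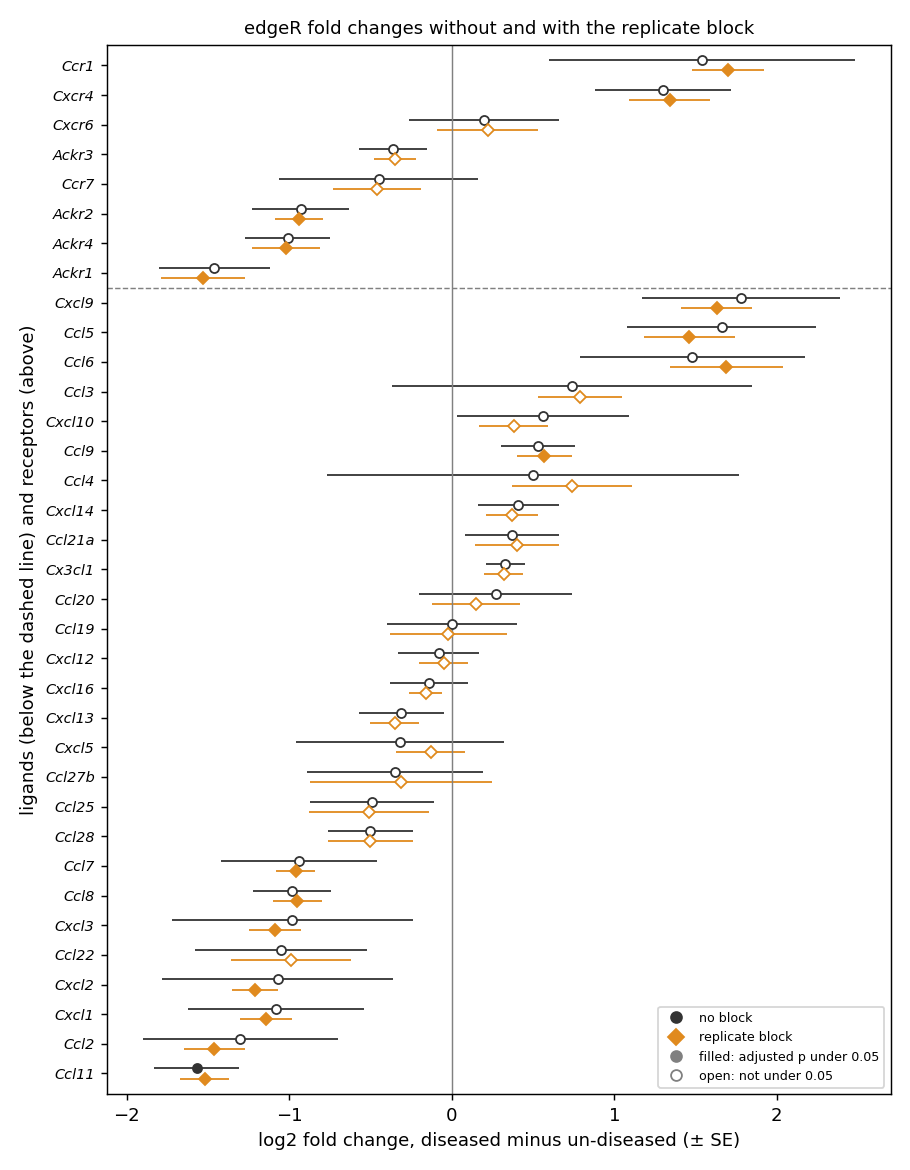
Log2 fold change, diseased minus un-diseased, with its SE for the 27 tested ligands and 8 receptors (horizontal axis, log2 units), from edgeR without the block (circles) and with it (diamonds); filled symbols have an adjusted p under 0.05. Without the block Ccl11 is filled, and with the block 11 ligands and 5 receptors are.

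The ELR ligands that attract neutrophils were among the most abundant ligands. Values are CPM, read counts scaled by library size. Cxcl1 had 574.8, 2242.1 and 1492.5 CPM in diseased replicates 1, 2 and 3, and 1386.2, 4086.3 and 3627.8 CPM in un-diseased replicates 1, 2 and 3. Replicate 1 was the lowest of each group, so the groups overlapped, while each diseased sample lay below the un-diseased one of the same number. The log2 fold change was -1.08 (SE 0.54, adjusted p = 0.237 by edgeR), and -1.14 (SE 0.16, adjusted p = 0.00338) with the block.

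Cxcl2 had 58.8, 399 and 227.8 CPM in the diseased and 168.1, 721.4 and 548.6 CPM in the un-diseased samples. The difference on the log2 scale was -1.07 (SE 0.71, adjusted p = 0.346 by edgeR), and -1.21 (SE 0.14, adjusted p = 0.00231) with the block. Cxcl3 had 12.2, 89.7 and 58.8 CPM against 32.2, 134.3 and 149.5 CPM, with adjusted p = 0.404 by edgeR and 0.00411 with the block. Without diseased replicate 2 the unblocked log2 fold changes were -1.74 for Cxcl2 and -1.57 for Cxcl3, against -0.98 for Cxcl3 with all samples. Without diseased replicate 1 they were -0.61 for Cxcl2 and -0.5 for Cxcl3. Without un-diseased replicate 2 they were -0.66 and -0.78. Both ligands had replicate 1 lowest in each group, as Cxcl1 did. Cxcl5, the ELR ligand at the other end of the same gene cluster, went both ways between pairs. It had 156.7, 513.5 and 398.1 CPM in diseased and 114.5, 549.5 and 668.3 CPM in un-diseased samples, with adjusted p = 0.767 by edgeR and 0.66 with the block. Cxcl1, Cxcl2 and Cxcl3 are close in sequence, so their counts are uncertain where reads were shared.

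Ccl2 and Ccl7, CC ligands that attract monocytes, had the order of Cxcl1 within each group, with replicate 1 lowest and replicate 2 highest. Ccl2 had 179.5, 946.1 and 629.6 CPM in diseased and 678.4, 1853.2 and 1782.3 CPM in un-diseased samples. On the log2 scale it differed by -1.30 (SE 0.60, adjusted p = 0.206 by edgeR), and -1.46 (SE 0.19, adjusted p = 0.00279) with the block. The diseased and un-diseased ranges overlapped through un-diseased replicate 1. Ccl7 had 161.2, 506.2 and 398 CPM against 327.3, 869.6 and 844.2 CPM, a log2 fold change of -0.94 (SE 0.48, adjusted p = 0.245 by edgeR), and -0.96 (SE 0.12, adjusted p = 0.00265) with the block.

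Ccl11 (gene 20292, GRCm38 chromosome 11, 82057832 to 82062955), or eotaxin, attracts eosinophils. It had 42.2, 55.5 and 53.6 CPM in diseased and 114, 215.5 and 120 CPM in un-diseased samples, and unlike Ccl2 and Ccl7 its groups did not overlap. It fell by 1.57 on the log2 scale (SE 0.26, adjusted p = 0.0278 by edgeR), and with the block by 1.52 (SE 0.15, adjusted p = 0.00139). The call was lost without any of the diseased samples and without un-diseased replicate 2 or 3. The adjusted p by edgeR was 0.0658, 0.0525 and 0.132 without diseased replicates 1, 2 and 3, and 0.0536 and 0.0678 without un-diseased replicates 2 and 3; it was 0.0302 without un-diseased replicate 1. The direction held each time, with log2 fold changes from -1.74 to -1.22. Ccr3, the receptor of Ccl11, had 0 to 7 counts in any sample and was not tested.

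Ccl8 lies next to these genes and had 11.3, 14.9 and 14.7 CPM in diseased and 21.4, 37.1 and 22.2 CPM in un-diseased samples, again with no overlap. On the log2 scale this was -0.98 (SE 0.24) with adjusted p = 0.0624 by edgeR, 0.00422 by DESeq2 and 0.00517 with the block in edgeR. In the authors' deposited table, log2 ratios of un-diseased over diseased are 1.58 for Ccl11 and 0.99 for Ccl8, with q-values of 8.58e-07 and 0.00521.

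**Figure D2:**
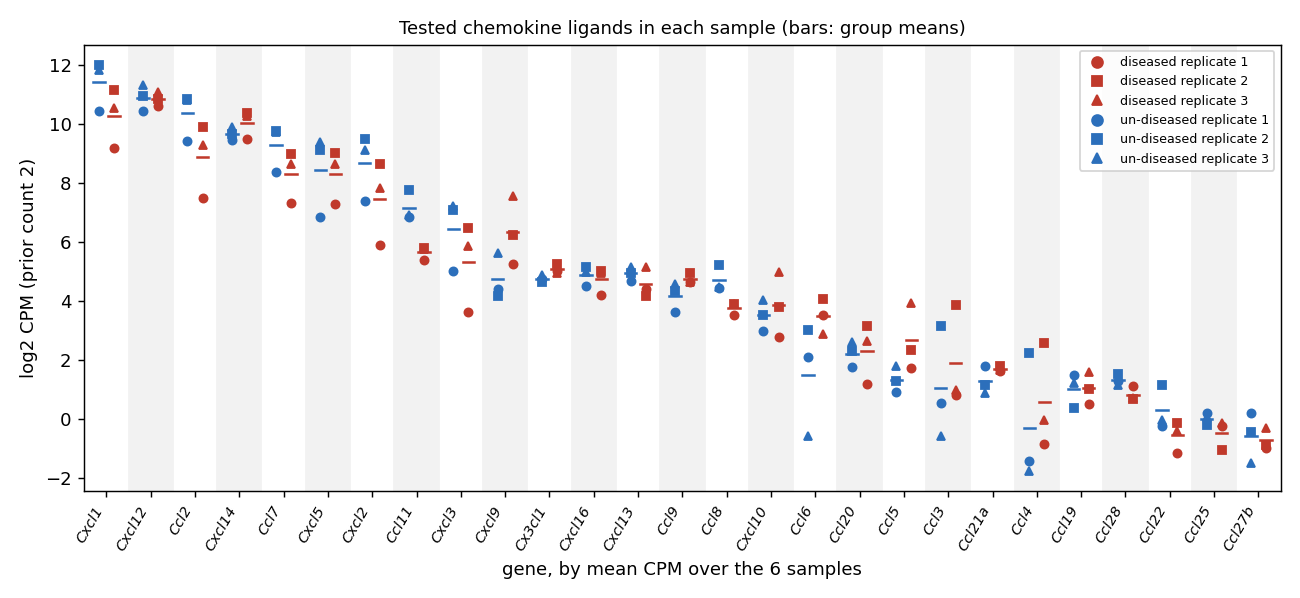
Log2 CPM (vertical axis, prior count 2) of the 27 tested ligands in each sample, un-diseased in blue and diseased in red, with a symbol for each replicate number and bars for group means; genes are ordered by mean CPM. Cxcl1, Cxcl2, Cxcl3, Ccl2 and Ccl7 have replicate 1 lowest in both groups. So do Cxcl5, Cxcl10, Cxcl12, Cxcl14, Cxcl16, Ccl5, Ccl8, Ccl11, Ccl20 and Ccl22. Cxcl9, Cxcl10 and Ccl5 have their highest value in diseased replicate 3.

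The interferon-induced ligands were highest in diseased replicate 3. Cxcl9 had 38.1, 75.3 and 189.9 CPM in diseased and 21.3, 18 and 48.8 CPM in un-diseased samples. Un-diseased replicate 3 lay above diseased replicate 1, so the groups overlapped. Cxcl9 differed by 1.78 on the log2 scale (SE 0.61, adjusted p = 0.124 by edgeR), and 1.63 (SE 0.22, adjusted p = 0.00314) with the block. Without diseased replicate 3 the unblocked value was 0.95. Cxcl10 had 6.75, 13.9 and 31.6 CPM against 7.87, 11.3 and 16.3 CPM and passed neither fit (adjusted p = 0.498 by edgeR and 0.206 with the block). Cxcr3, the receptor of both, had 0 to 2 counts in any sample.

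Ccl5, a ligand of Ccr1 and Ccr3 that attracts T cells and monocytes, had 3.23, 4.98 and 15.3 CPM in diseased and 1.77, 2.32 and 3.35 CPM in un-diseased samples. Diseased replicate 3 was highest, and diseased replicate 1 lay below un-diseased replicate 3. The difference was 1.66 on the log2 scale (SE 0.58), with adjusted p = 0.13 by edgeR and 0.0312 by DESeq2. With the block in edgeR it was 1.46 (SE 0.28, adjusted p = 0.00922). In the authors' deposited table the log2 ratio of un-diseased over diseased is -1.65 for Ccl5, with a q-value of 0.0375. Without diseased replicate 3 the unblocked value was 0.73, and with the block and without replicate 3 of both groups it was 0.99 and did not pass (adjusted p = 0.0727 by edgeR). Irf1 and Irf7, transcription factors of the interferon response, also had their highest values in diseased replicate 3, at 370 CPM (122.7 to 274.1 in the others) and 25.5 CPM (12.5 to 19.1), and passed neither fit.

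Ccl5 opens a second gene cluster on chromosome 11 that holds Ccl9, Ccl6, Ccl3 and Ccl4, ligands made largely by macrophages and other myeloid cells. Ccl6 had 11.3, 16.7 and 7.28 CPM in diseased and 4.17, 7.95 and 0.558 CPM in un-diseased samples; un-diseased replicate 2 lay above diseased replicate 3. Ccl6 differed by 1.48 on the log2 scale (SE 0.69, adjusted p = 0.21 by edgeR), and 1.69 (SE 0.35, adjusted p = 0.0128) with the block. Without un-diseased replicate 2 the unblocked value was 2.27, and without un-diseased replicate 3 it was 0.96. Ccl9 had 25, 30.9 and 24.9 CPM against 12.4, 20 and 23.8 CPM, with no overlap but a small gap (adjusted p = 0.186 by edgeR, and 0.0461 with the block). The blocked call of Ccl9 was lost without replicate 1 (adjusted p = 0.166 by edgeR) and without replicate 2 (0.112).

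Ccl3 and Ccl4 were set by replicate 2 of either group. Ccl3 had 14.3 CPM in diseased and 8.77 CPM in un-diseased replicate 2, and 0.558 to 1.89 CPM in the other 4 samples. Ccl4 had 5.92 and 4.63 CPM in those 2 samples and 0.186 to 0.863 CPM in the others. Neither passed, with adjusted p = 0.684 and 0.819 by edgeR and 0.0588 and 0.176 with the block.

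In 3 gene clusters neighbouring ligands mostly had the same sign of difference, while the clusters of chromosomes 8 and 4 were mixed. On chromosome 8, Ccl22 was lower in all 3 pairs (log2 fold change -1.05) and Cx3cl1 was higher in all 3 (0.33). On chromosome 4, Ccl27b, Ccl19 and Ccl21a had log2 fold changes of -0.35, 0 and 0.37. Cxcl9 and its neighbour Cxcl10 both had positive values (1.78 and 0.56). In the cluster of chromosome 11 from Ccl2 to Ccl1, which spans 144.2 kb, the 4 tested ligands (Ccl2, Ccl7, Ccl11 and Ccl8) had log2 fold changes with a median of -1.14, and 4 of 4 were lower in all 3 pairs (30.1% of all genes were). In the cluster from Ccl5 to Ccl4, 138.9 kb long on the same chromosome, the 5 tested ligands had a median of 0.74, and 5 of 5 were higher in all 3 pairs (30.7% of all genes were). In the cluster of chromosome 5 from Cxcl5 to Cxcl2, of 146.6 kb, the median was -1.02 and 3 of 4 tested ligands were lower in all pairs, against the same 30.1%.

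**Figure D3:**
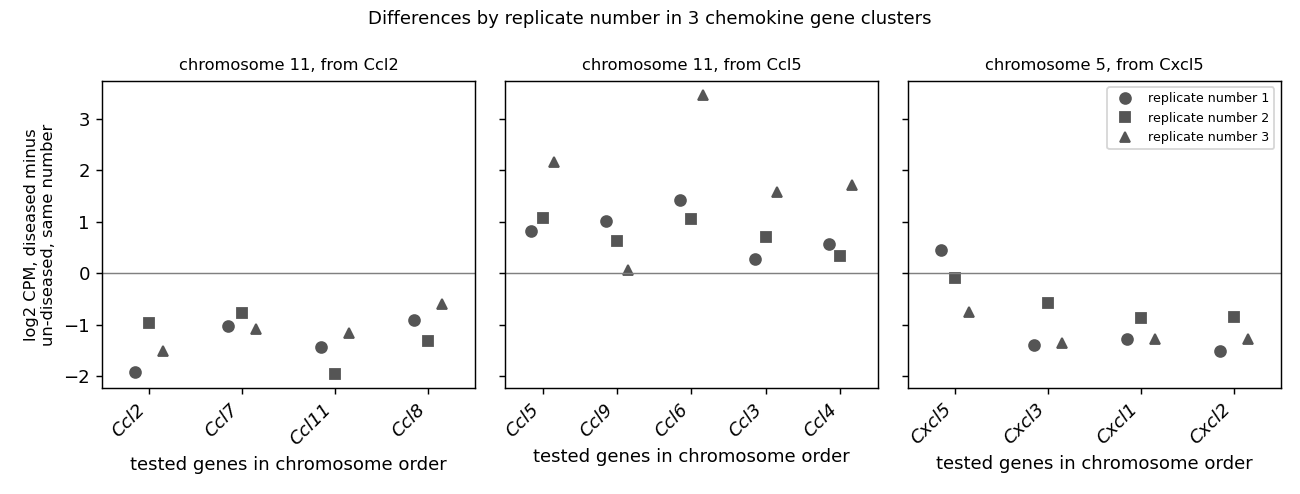
Difference in log2 CPM between the diseased and the un-diseased sample of the same replicate number (vertical axis) for the tested ligands of 3 gene clusters, in chromosome order; each symbol is a replicate number. The 4 genes from Ccl2 to Ccl8 lie below 0 in all pairs and the 5 from Ccl5 to Ccl4 above 0, while Cxcl5 lies on both sides.

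Cxcl12, Cxcl14 and Cx3cl1, ligands that tissues also make without inflammation, passed neither fit. Cxcl12, which retains cells through Cxcr4, had 1545.3, 1835.6 and 2184.1 CPM in diseased and 1376.6, 1957.1 and 2549.6 CPM in un-diseased samples, with full overlap. Its log2 fold change was -0.08 (SE 0.25, adjusted p = 0.854 by edgeR), and the sign turned with upper-quartile scaling (0.01). Cxcl14 had 715.2, 1315.6 and 1227 CPM against 700.3, 807.1 and 950.8 CPM, at 0.41 (SE 0.25, adjusted p = 0.31 by edgeR). Cx3cl1, a membrane-bound ligand, had 32.3, 37.9 and 31 CPM in diseased and 26.5, 25.2 and 29.1 CPM in un-diseased samples. Its groups did not overlap, yet the log2 fold change of 0.33 (SE 0.12) had adjusted p = 0.133 by edgeR and 0.0816 with the block. With the block and upper-quartile scaling together Cx3cl1 was called higher.

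Per length of the annotated exons, Cxcl1 was the most abundant ligand by its mean over the 6 samples, at 2345.2 RPKM (CPM per kilobase), then Ccl2 at 1244.2, Ccl7 at 646.4, Cxcl14 at 521.4, Cxcl12 at 266.5 and Cxcl5 at 254 RPKM. The sample ranges of neighbours in this order overlapped, apart from Cxcl14 (383.3 to 720.1 RPKM) and Cxcl12 (192.3 to 356.1 RPKM). The order is that of the pooled mean: in diseased samples Cxcl14 (594.4 RPKM) lay above Ccl7 (443.4 RPKM), and in un-diseased samples Cxcl5 (282 RPKM) lay above Cxcl12 (273.9 RPKM). Cxcl16, Cxcl13, Cxcl10, Ccl20, Ccl19, Ccl21a, Ccl22, Ccl25, Ccl27b and Ccl28 were tested and passed neither fit, at mean levels of 0.416 RPKM (Ccl22) to 24.1 RPKM (Cxcl13). The Ccl21 and Ccl27 genes have near-identical copies, so the counts of Ccl21a and Ccl27b are uncertain. The other 8 ligands, Ccl1, Ccl12, Ccl17, Ccl24, Ccl27a, Cxcl15, Cxcl17 and Xcl1, had 0 to 14 counts in any sample and fell below the filter.

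Of the signalling receptors, Ccr1, which binds Ccl3 and Ccl5 on myeloid cells, had 6.55, 20.2 and 2.91 CPM in diseased and 1.93, 7.76 and 0.496 CPM in un-diseased samples. Replicate 2 was highest in each group, and the groups overlapped. Ccr1 differed by 1.54 on the log2 scale (SE 0.94, adjusted p = 0.31 by edgeR), and 1.70 (SE 0.22, adjusted p = 0.00269) with the block. Omitting diseased replicate 2 gave an unblocked value of 0.49 for Ccr1, and omitting un-diseased replicate 2 gave 2.97. Cxcr4, the receptor of Cxcl12, had 5.58, 6.35 and 3.02 CPM against 1.46, 3.26 and 1.36 CPM. Cxcr4 differed by 1.30 on the log2 scale (SE 0.42) with adjusted p = 0.115 by edgeR, 0.0425 by DESeq2 and 0.00912 with the block in edgeR, and the blocked call was lost without replicate 3 (log2 fold change 1.41, SE 0.30, adjusted p rounding to 0.05), where the blocked value with all replicates was 1.34. In the authors' deposited table the log2 ratio of un-diseased over diseased is -1.29 for Cxcr4, with a q-value of 0.0507. Ccr7 and Cxcr6 passed neither fit (adjusted p = 0.651 and 0.794 by edgeR). The other 9 receptors, Ccr3, Ccr4, Ccr6, Ccr8, Ccr9, Ccr10, Cxcr1, Cxcr3 and Cxcr5, had 0 to 9 counts in any sample and were not tested.

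The 4 atypical receptors all had lower means in diseased samples, and all were lower in each of the 3 pairs (30.1% of all genes were). By edgeR without the block 0 passed and 3 had an unadjusted p below 0.05, as had 27.8% of all genes in either direction. By DESeq2 3 were lower, beside 6.65% of all genes, and with the block 3 were lower, beside 13.3%. Ackr3, which scavenges Cxcl12, was by far the most abundant receptor at 214.2 RPKM against 7.26 RPKM or less for the other 7. It had 490, 691.6 and 545.1 CPM in diseased and 564.1, 860.9 and 787.2 CPM in un-diseased samples, with overlap (log2 fold change -0.36, SE 0.21, adjusted p = 0.287 by edgeR and 0.0757 with the block).

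Ackr2, a scavenger of inflammatory CC ligands such as Ccl2 and Ccl11, had 16.4, 8.41 and 10.4 CPM in diseased and 25.8, 15 and 26.5 CPM in un-diseased samples. Diseased replicate 1 lay above un-diseased replicate 2. The log2 fold change was -0.93 (SE 0.30) with adjusted p = 0.113 by edgeR, 0.0295 by DESeq2 and 0.0056 with the block in edgeR. Its promoter, chr9:121898105-121898354 on the plus strand, is printed because it is the Ackr promoter with NF-kB matches, in capitals.
Ackr2: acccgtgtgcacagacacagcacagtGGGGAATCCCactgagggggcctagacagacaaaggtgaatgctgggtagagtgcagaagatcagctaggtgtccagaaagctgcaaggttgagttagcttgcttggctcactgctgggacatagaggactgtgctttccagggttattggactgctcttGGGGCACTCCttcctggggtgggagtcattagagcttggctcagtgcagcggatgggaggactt
The matches differ in sequence from those of the Cxcl promoters and begin 224 and 64 bases before the start site.

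Ackr4, which scavenges Ccl19, Ccl21 and Ccl25, had 5.77, 3.36 and 3.51 CPM in diseased and 8.34, 6.95 and 10.2 CPM in un-diseased samples, with no overlap. Its log2 fold change was -1.01 (SE 0.26) with adjusted p = 0.0747 by edgeR, 0.0113 by DESeq2 and 0.0133 with the block in edgeR; the blocked call was lost without replicate 3 (0.0922). An exon of Ackr4 overlaps Acad11 on the other strand, and Acad11 went the other way (log2 fold change 0.54, SE 0.14). Ackr1, which binds both CC and CXC ligands, had 2.49, 6.79 and 6.15 CPM against 14, 16.1 and 12.1 CPM, with no overlap. Ackr1 differed by -1.46 on the log2 scale (SE 0.34) with adjusted p = 0.0585 by edgeR, 0.0472 by limma-voom, 0.00122 by DESeq2 and 0.00665 with the block in edgeR. In the authors' deposited table the q-values are 0.0014 for Ackr1, 0.0146 for Ackr4, 0.0384 for Ackr2 and 0.314 for Ackr3. Their log2 ratios of un-diseased over diseased are 1.47, 1.02, 0.94 and 0.37. Exons of Ackr1 overlap those of Cadm3 on the same strand, and the counts of Ackr1 were not whole. Cadm3 fell, with 197.4 ± 36.4 CPM in diseased and 386.2 ± 43 CPM in un-diseased samples (SD, n = 3 each; log2 fold change -0.97, SE 0.17, adjusted p = 0.0321 by edgeR). How much of the difference in Ackr1 came from reads of Cadm3 was not tested.

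**Figure D4:**
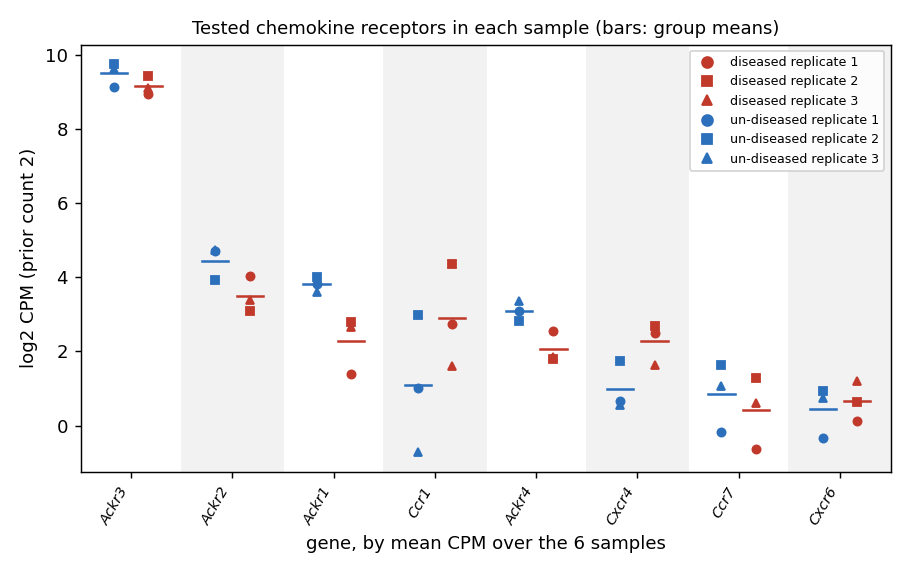
Log2 CPM (vertical axis, prior count 2) of the 8 receptors in each sample, un-diseased in blue and diseased in red, with a symbol for each replicate number and bars for group means. The diseased means of Ccr1 and Cxcr4 lie above the un-diseased ones, and those of the 4 Ackr genes lie below.

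Macrophage markers were higher in the diseased sample of each pair, as were Ccr1, Cxcr4 and the 5 ligands from Ccl5 to Ccl4. The 18 markers summed to 455.3, 671.3 and 270.1 CPM in diseased and 147, 337.3 and 55.5 CPM in un-diseased samples; 17 of 18 had a positive log2 fold change, with a median of 1.26. By edgeR 0 of them passed, and 7 had an unadjusted p below 0.05, all upward (27.8% of all genes had it in either direction). DESeq2 called 2 of them higher, beside 4.79% of all genes, while 17 were higher with the block, beside 10.5% of all genes. Neutrophil markers, leaving out Cxcr4, summed to 226.1, 289.2 and 196.2 CPM in diseased and 128.5, 326.8 and 102.3 CPM in un-diseased samples. Lcn2, which fibroblasts can also make, gave 93.6 to 136.8 CPM of each sum, and without it the markers summed to 106.9, 175.3 and 59.5 CPM against 34.6, 221.8 and 8.68 CPM. The macrophage sum had the order of Ccl6, Ccr1 and Cxcr4 in both groups, with replicate 2 highest and replicate 3 lowest. Ccl9, Ccl3 and Ccl4 did not have that order throughout. The part of macrophages or neutrophils in the differences of Ccr1, Cxcr4, Ccl3, Ccl4, Ccl6 and Ccl9 was not tested. In bulk samples, fewer cells of a type and less RNA per cell cannot be told apart.

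**Figure D5:**
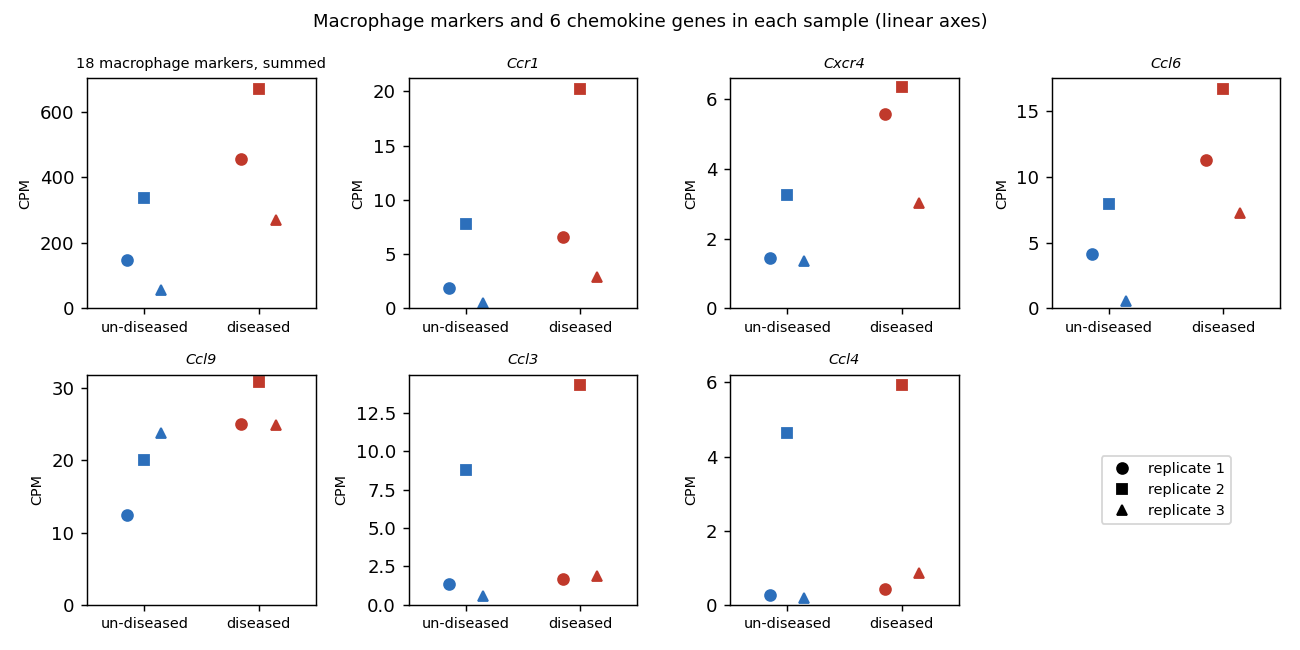
CPM on linear axes in each sample for the sum of 18 macrophage markers and for Ccr1, Cxcr4, Ccl6, Ccl9, Ccl3 and Ccl4, un-diseased in blue and diseased in red. Replicate 2 has the highest value of its group in every panel except Ccl9, where un-diseased replicate 3 is highest; Ccl3 and Ccl4 are high in replicate 2 alone.

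The other markers bear on which cells were present. The labelled cell type's markers were by far the most abundant. The 9 fibroblast markers summed to 85099 to 120081.6 CPM in diseased and 64200.8 to 89979.9 CPM in un-diseased samples. The 5 tendon markers summed to 4597.7 to 6688.6 CPM against 2379.8 to 2886.2 CPM, with no overlap. By edgeR 2 of them, Thbs4 and Fmod, were higher (adjusted p = 0.0357 and 0.0392), beside 1.61% of all genes. The part of a shift among fibroblasts in the chemokine differences was not tested. T cell markers summed to 4.06 to 12.1 CPM (Trac not analysed here), and B cell markers to 0.196 to 0.682 CPM, with at most 8 counts of any marker. Mast cell markers summed to 5.28, 17.6 and 3.02 CPM in diseased and 15.2, 36.6 and 4.59 CPM in un-diseased samples. Of 5 tested, 0 passed by edgeR or DESeq2 or had an unadjusted p under 0.05, and 4 were lower with the block (13.3% of all genes were). Endothelial markers summed to 50.2 to 68.3 CPM in diseased and 60.1 to 85.6 CPM in un-diseased samples, mostly from Tek. Tek was lower in diseased samples (log2 fold change -0.75, SE 0.19, adjusted p = 0.0684 by edgeR and 0.0147 with the block). Of the 8 tested, 6 had a positive log2 fold change, and the median was 0.73. By edgeR 1 was higher, Erg (adjusted p = 0.0254), beside 1.61% of all genes. With the block 3 were higher and 1, Tek, lower, or 37.5% and 12.5% beside 10.5% and 13.3% of all genes. Lymphatic endothelial markers, leaving out Ccl21a, summed to 203 to 372 CPM in diseased and 221.5 to 438.9 CPM in un-diseased samples. Pdpn, also a fibroblast gene, made up nearly the whole of these sums; without it they were 6.65 to 9.53 CPM and 6.51 to 7.83 CPM. Endothelial cells are a known source of Ackr1, and lymphatic ones of Ackr2; the part of these cells was not tested. Dendritic cell markers, leaving out Ccr7, summed to 13.5 to 29.2 CPM in diseased and 41.4 to 44.6 CPM in un-diseased samples, mostly from Zbtb46, at 22 ± 7.74 and 42.1 ± 1.97 CPM (SD, n = 3 each). Pericyte markers summed to 370.2 to 473.9 CPM over all samples.

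Genes that induce or restrain chemokine transcription were mixed. Of 31 tested, 0 rose and 1 fell by edgeR, Cebpd, a C/EBP transcription factor of the acute-phase response, at 108.6, 113.3 and 157.1 CPM in diseased against 205.7, 217 and 240.5 CPM in un-diseased samples (log2 fold change -0.81, SE 0.16, adjusted p = 0.0435). Of all tested genes, 1.61% rose and 2.13% fell by edgeR. The median of the list was 0.07. Unadjusted p-values under 0.05 were reached by 3 upward and 7 downward, beside 27.8% of all genes in either direction. DESeq2 called 1 upward and 4 downward, beside 4.79% and 6.65% of all genes. With the block 2 were higher and 11 lower, or 6.45% and 35.5% of the list beside 10.5% and 13.3% of all genes. Those lower included the cytokine Il6, the NF-kB subunits Nfkb1, Nfkb2, Rela and Relb, and Nfkbia, an inhibitor of NF-kB. Those higher were Il1b and Fos. Nfkb1 had 128.4, 555.3 and 296.8 CPM in diseased and 477.7, 1119.7 and 914.8 CPM in un-diseased samples, with replicate 1 lowest and replicate 2 highest in each group (adjusted p = 0.15 by edgeR, and 0.00227 with the block). Il6 had 74.1, 338.2 and 220.2 CPM against 252.9, 844.5 and 907 CPM (adjusted p = 0.142 by edgeR, and 0.00115 with the block), with replicate 1 lowest in each group as in Cxcl1, Cxcl2, Cxcl3, Ccl2 and Ccl7. Having replicate 1 lowest in each group was not particular to these genes. It also held for Ccl5, which was higher with the block. Cxcl5, Cxcl12, Cxcl14 and Ackr3, which passed neither fit, had it too.

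Of 33 tested genes of signal transduction below the receptors, 0 passed by edgeR. An unadjusted p below 0.05 was reached by 4 upward and 3 downward, beside 27.8% of all genes in either direction. By DESeq2 1 was higher and 2 lower, beside 4.79% and 6.65% of all genes. With the block 9 were higher and 3 lower, or 27.3% and 9.09% of the list beside 10.5% and 13.3% of all genes. The block gave its smallest adjusted p to Rgs16, an inhibitor of Gi signalling, which was lower at 1.71, 5.11 and 5.45 CPM against 5.79, 10.7 and 14.4 CPM (adjusted p = 0.13 by edgeR and 0.00269 with the block). Next were Gng2, a G protein gamma subunit, at 17.3 ± 1.82 and 11.3 ± 1.66 CPM (0.00912 with the block in edgeR), and Vav1, a guanine exchange factor of blood cells, at 4.06 ± 2.08 and 1.36 ± 1.48 CPM (0.00914; SD, n = 3 each, diseased first).

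Among 17 genes of chemokine processing and presentation, 1 rose and 0 fell by edgeR, beside 1.61% and 2.13% of all genes. Unadjusted p-values under 0.05 were reached by 4 upward and 1 downward, beside 27.8% of all genes in either direction. The gene that rose was Sdc3, a heparan sulfate proteoglycan of the syndecan family, at 35.5, 41.6 and 44 CPM in diseased against 23.3, 28.4 and 19.8 CPM in un-diseased samples (log2 fold change 0.76, SE 0.15, adjusted p = 0.0435). DESeq2 called 1 upward and 0 downward, beside 4.79% and 6.65% of all genes. With the block 4 were higher and 2 lower (23.5% and 11.8%, beside the same 10.5% and 13.3%). Of 8 tested genes acting on mRNA decay, including the mRNA stabiliser Elavl1, 0 passed by edgeR. An unadjusted p under 0.05 was reached by 2, both downward, beside 27.8% of all genes in either direction. DESeq2 called 1 downward, beside 6.65% of all genes. With the block 0 were higher and 3 lower (37.5%, beside 13.3% of all genes). Elavl1 was among both the 2 and the 3. The smallest blocked adjusted p there was that of Zc3h12a, a ribonuclease that degrades inflammatory transcripts, at 93.3 ± 29.7 and 153.7 ± 5.88 CPM (0.0112 with the block in edgeR). Of 8 chemokine-like proteins outside the symbol rule, such as Mif and Pf4, 0 passed by edgeR, DESeq2 or with the block, and 0 had an unadjusted p under 0.05. Of 3 tested other receptors 0 passed by edgeR or DESeq2, 1 (Pitpnm3, downward) had an unadjusted p under 0.05, and with the block Ccrl2, which binds chemerin, was higher at 11.7, 56.8 and 13.4 CPM against 7.51, 24.5 and 9.3 CPM (adjusted p = 0.37 by edgeR and 0.00868 with the block).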

How the data were processed

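The authors' deposited table holds estimated counts per gene for 6 samples, the authors' group means, and their log2 ratio, p-value and q-value, per the file headers. HISAT2 2.0.4, RSEM 1.3.1, DESeq2 1.4.5 and GRCm38 are named in the submitters' processing notes, with no role or order. Whether counting used strand is not given in the sources used here. Estimated counts, 9.61% of them not whole, were rounded. Where a gene had no count, its level could still be up to that of 3 counts, 0.147 to 0.188 CPM by sample (counting error only).

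Genes were kept by filterByExpr with a least count of 10 (13264 genes), scaled with TMM and tested with edgeR 4.0.16 (R 4.3.3) by its quasi-likelihood test with Benjamini-Hochberg adjustment over all genes and a threshold of 0.05. SEs came from the F statistic. The deviations of same-numbered samples from their group means correlated at 0.487, 0.578 and 0.276 over these genes. The highest correlations of diseased replicates 1, 2 and 3 with another number were -0.156, -0.0681 and 0.137. The replicate numbers were therefore taken to pair the samples, which the labels do not state. If they do not pair them, the blocked p-values do not apply. Alternatives were the block, other scalings and filters, DESeq2 1.42.0, limma-voom (limma 3.58.1), a threshold of 0.01 and omission of each sample; blocked fits without a replicate number or with upper-quartile scaling were added after seeing the data. Exon lengths and overlaps came from GENCODE M21, positions and promoters from RefSeq (GRCm38.p6), which matched all 52 members and 40 of them, respectively. Scripts were tested on simulated data. A few genes that the rule or a list names are not reported here. The members and gene lists were chosen with earlier results of these data known. Every sample's value was given for members called by edgeR without or with the block. It was also given for the 8 ligands and 5 receptors with the highest mean CPM. Pathway genes were named by the smallest adjusted p, to at most 3 called per list. A few others (Cx3cl1, Cxcl10, Ccl3, Ccl4, Il6, Il1b, Irf1, Irf7, Lcn2, Pdpn, Nfkb1, Nfkb2, Relb, Rela, Nfkbia, Elavl1, Fos, Pitpnm3, Cadm3, Acad11, Zbtb46, Tek, Erg, Thbs4, Fmod) were chosen after their values were seen.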

Additional observations from a re-analysis of the deposited data

How the results depend on the processing

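With the replicate block, 4 ligands were higher and 7 lower, and 2 receptors were higher and 3 lower. Without it these counts were 0, 1, 0 and 0. The block called 10.5% of all genes higher and 13.3% lower. It takes the samples as paired by replicate number, a pairing inferred from the data and not stated in the labels. Without replicate 1, 2 or 3 of both groups, the blocked counts were 3 ligands higher and 7 lower, and 1 to 2 receptors higher and 2 to 3 lower. In these fits 7.62%, 6.06% and 3.18% of all genes were higher, and 11.7%, 9.55% and 4.35% were lower. The block with upper-quartile factors gave 5 and 7 ligands and 2 and 3 receptors, with Cx3cl1 among the 5 higher ligands. That fit called 15.6% of all genes higher and 10.4% lower. DESeq2 called 1 ligand higher and 2 lower, and 1 receptor higher and 3 lower, beside 4.79% and 6.65% of all genes. With all genes of at least 1 count, 2 ligands and 1 receptor were lower, beside 2.09% of all genes. By limma-voom 1 ligand and 1 receptor were lower, beside 2.16% of all genes. At a threshold of 0.01 the count of lower ligands was 0, beside 0.0151% of all genes. Leaving out single samples gave 0 to 2 lower ligands, and 0 higher ligands and 0 receptors each time. Among all genes tested, the fit lacking diseased replicate 3 called 2 higher and 3 lower, and the one lacking un-diseased replicate 1 called 354 and 721. The log2 fold change of Cxcl12 turned positive with upper-quartile factors (0.01), with the block without replicate 3 (0.04) and with the block and upper-quartile factors (0.03). When single samples were left out, Cxcl12 ranged from -0.29 to 0.15 (0.04 without diseased replicate 1; 0.15 for un-diseased replicate 3) and Cxcl5 from -0.79 to 0.10 (0.04 and 0.10 for the same omissions). Cxcl5 was 0.18 with the block without replicate 3. Of the 20 members whose fold changes were compared under these settings (those called by either fit, the 8 ligands and the 5 receptors of highest mean CPM), no other changed sign. The fold changes of Cxcl10, Cx3cl1, Ccl3 and Ccl4 were not compared. Upper-quartile factors moved the median log2 fold change of all genes to 0.10. The cause of these changes was not tested. Un-diseased samples held 8 to 124 counts of Ccr1 and 22 to 52 of Cxcr4.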
